A study of Mus musculus with 9 samples.

Results

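The genes described here are the 10 mouse genes that encode the DNA methyltransferases (Dnmt1, Dnmt3a and Dnmt3b), the ten-eleven translocation (TET) dioxygenases (Tet1, Tet2 and Tet3), the methyltransferases of H3K27, a lysine in the tail of histone H3 (Ezh1 and Ezh2), and the demethylases of the same residue (Kdm6a and Kdm6b). They were taken by name, through their Ensembl identifiers, from a table of 53379 genes, and all 10 had a row. Bone marrow (BM) cells of 3 wild-type C57BL/6 mice were grown for 3 days with 10 ng/ml CSF-1 (MCSF), the growth factor that drives Mϕ differentiation. They were then kept for 4 days on 10 ng/ml CSF-1 alone (control), with 10 ng/ml IL-4 added, or with 100 ng/ml IL-6 added, and RNA was sequenced from 3 libraries per group. Doses and days are those of the sample labels, and the study's text gives other cytokine doses and another duration in places. The question is whether the 2 cytokines left the Mϕs with different amounts of transcript for the enzymes that write and erase these marks. These are cultures of unsorted BM cells, so in bulk RNA fewer cells of a type and less RNA per cell cannot be told apart.

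DNMT enzymes place a methyl group on cytosine, mostly at CG dinucleotides, with DNMT1 copying the pattern at replication and DNMT3A and DNMT3B placing it on unmethylated DNA. TET enzymes oxidise methylcytosine and so open the way to its removal. EZH1 and EZH2 are the alternative catalytic subunits of Polycomb repressive complex 2 (PRC2), which trimethylates H3K27 at silent genes, and the KDM6 enzymes UTX (Kdm6a) and JMJD3 (Kdm6b) take that mark off. In Mϕs, JMJD3 is known for its induction by inflammatory stimuli and for its part in alternative activation, and TET2 and DNMT3A are best known as genes mutated in clonal haematopoiesis.

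Expression was measured as FPKM (fragment counts scaled to gene length and sequencing depth), the unit that the authors deposited. The libraries held 29988160 to 39909571 fragments, read back from the FPKM steps. Comparisons were made with limma on log2(FPKM + 0.1) over 12824 genes whose mean reached 0.5 FPKM, and a gene passed at a Benjamini-Hochberg adjusted p under 0.05. Of the genes described, 8 of 10 met that filter. Dnmt3b, at a mean of 0.4996 FPKM over 9 libraries, and Tet1, at 0.0285, did not, and their tests come from the same fit without the filter.

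Both treatments left their mark on the RNA. Socs3, a feedback inhibitor induced through STAT3, lay at 74.7, 80.9 and 85.5 FPKM in the IL-6 libraries and between 1.61 and 3.23 in the other 6 libraries. Arg1, the arginase of alternatively activated Mϕs, lay between 730.3 and 1227 FPKM with IL-4 and between 0.409 and 0.718 in control. All 10 Mϕ markers examined were detected, with a summed level of 16757 to 19047 FPKM in control, 6181 to 7163 with IL-4 and 20527 to 21605 with IL-6. Markers of neutrophils summed to 4986 to 8845, 2222 to 4150 and 8134 to 11308 FPKM in the same order, with 10 of 10 detected. Those of mast cells and basophils (6 of 6 detected) summed to 13.5 to 30.1, 51.1 to 83.7 and 6.18 to 24.4 FPKM. Those of B cells (5 of 6 detected) summed to 28.0 to 50.6, 23.2 to 31.3 and 19.8 to 33.2 FPKM. The part of these cells in the results below was not tested.

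Libraries stood apart in 2 further ways that touch the genes described, whose exons together cover 5106 to 16870 bases. The third IL-4 library was depleted of long genes, with the 492 genes of at least 12000 exon bases at a median of −1.27 (log2) from their 9-library mean, against 0.13 and −0.05 in the other IL-4 libraries. Among controls the same median was 0.47, −0.36 and −0.02, and with IL-6 it was 0.51, 0.29 and 0.27. Each comparison is therefore also given with every library's trend on exon length and GC content removed. Secondly, 15 transcripts of intestinal Paneth and goblet cells summed to 37.8 to 57.0 FPKM in the 3 controls and the first IL-4 library, and to at most 0.174 FPKM in the other 5. Among skeletal muscle markers, Myl1, Myh1 and Mb divided the same libraries in reverse. They were at 0 FPKM in the former and at 0.675 to 1.27, 0.302 to 0.511 and 0.229 to 0.807 in the other 5. Not all muscle markers did so, and Tnni2 was highest in the controls. All controls lie in the first set, all IL-6 libraries lie in the second, and the IL-4 group alone spans both, with 1 library in the first and 2 in the second. In IL-6 against control the division and the treatment therefore differ only through these IL-4 libraries, from which the set term used below is estimated. The third IL-4 library lies in the second set, so that term cannot tell the set from the depletion of long genes in this library.

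**Figure D1:**
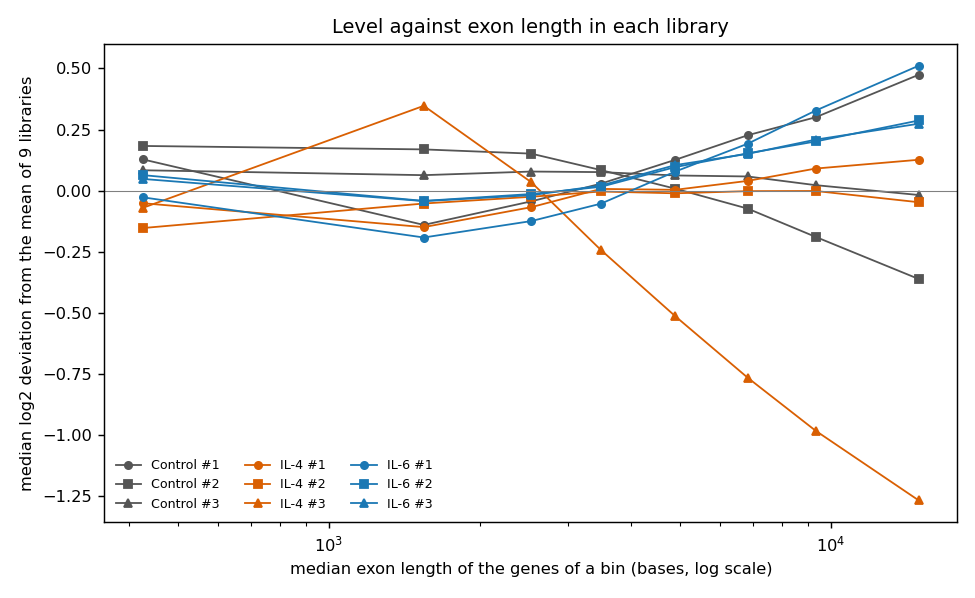
Median log2 deviation of genes from their 9-library mean (y axis) against the median exon length of the bin on a log scale (x axis), 1 line per library. The third IL-4 library fell to −1.27 in the bin of longest genes, and the 3 control libraries spread from −0.36 to 0.47 there.

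Per unit of length, Dnmt3a was the most abundant of the 10 transcripts in control and with IL-4 and ranked 3 with IL-6, behind Dnmt1 and Kdm6b, and Dnmt3b and Tet1 were the least abundant in each group. Across the 8 genes tested, 1 passed in IL-4 against control (Ezh1, lower), where 16.3% of all tested genes were lower and 8.55% higher. In IL-6 against control 1 passed (Dnmt3a, lower), where 3.82% were lower and 4.58% higher. In IL-6 against IL-4, 2 were higher (Kdm6b and Ezh1) and 1 lower (Dnmt3a), where 20.8% and 13.3% of all genes were. The groups did not overlap for 2 of the 8 genes in IL-4 against control (Kdm6b and Ezh1), against 40.3% of all genes. They did not overlap for 3 in IL-6 against control (Dnmt3a, Kdm6b and Ezh1), against 43.2%, and for 5 in IL-6 against IL-4 (these 3, Tet2 and Kdm6a), against 56.9%. Over all tested genes the median was −0.20 (log2) in IL-4 against control, 0.00 in IL-6 against control and 0.22 in IL-6 against IL-4.

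**Figure D2:**
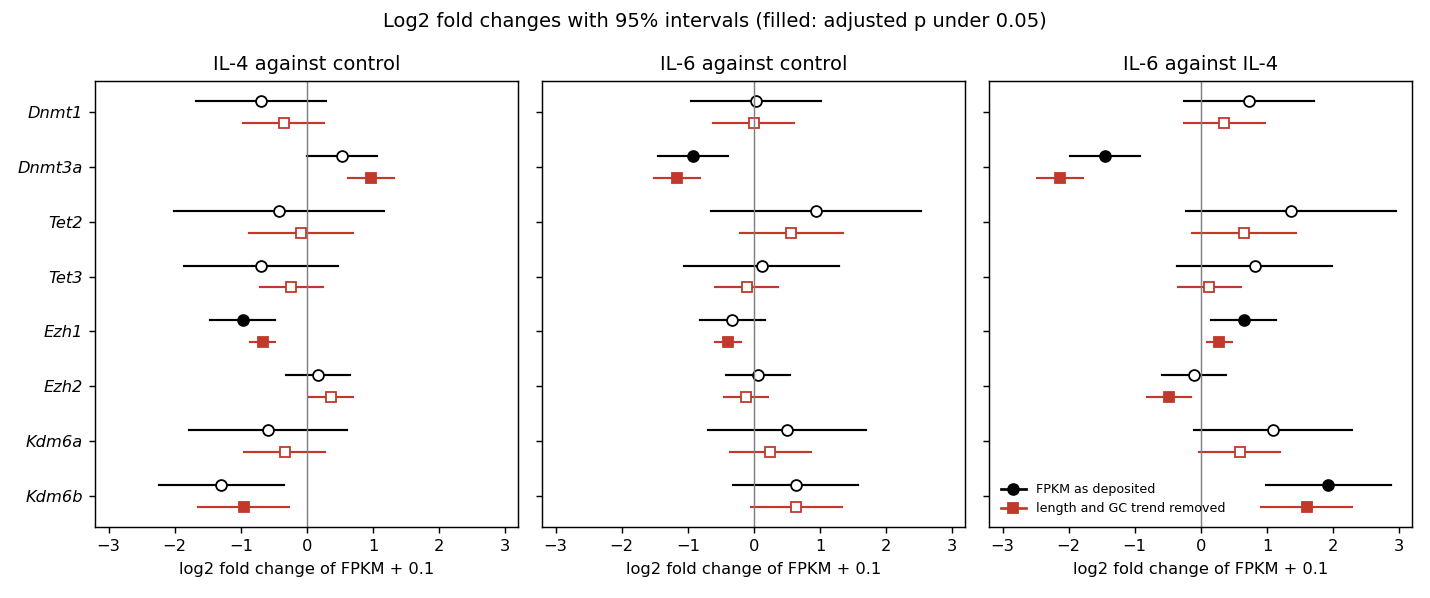
Log2 fold changes of FPKM + 0.1 (x axis) with 95% intervals for the 8 genes above the filter in the 3 comparisons, as deposited (black) and with each library's trend on exon length and GC content removed (red), filled where the adjusted p was under 0.05. Dnmt3a in IL-6 against IL-4 moved from −1.45 to −2.13, and Kdm6b stayed positive at 1.93 and 1.60.

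Dnmt3a was the member whose level differed most clearly between the 2 cytokines, being high with IL-4 and low with IL-6. Dnmt3a (ENSMUSG00000020661.15, chr12:3806007-3914443, plus strand, GRCm38) measured 21.5, 16.6 and 21.4 FPKM in control, 36.0, 33.4 and 19.3 FPKM with IL-4, and 10.1, 10.4 and 10.5 FPKM with IL-6. The first and second IL-4 libraries lay above every control, the third lay among the controls, and the IL-6 libraries lay below all others. Against IL-4, Dnmt3a was lower with IL-6 by a log2 fold change of −1.45 (SE 0.23, adjusted p = 0.0020), and it passed under each alternative run, leaving out of any 1 library included. Against control it was lower with IL-6, at 10.4 ± 0.235 against 19.9 ± 2.80 FPKM (SD, n = 3), a log2 fold change of −0.92 (SE 0.23, adjusted p = 0.048). That call sat at the threshold and was lost with the set as a term (log2 fold change −0.42, adjusted p = 0.45) and without 7 of the 9 libraries in turn (adjusted p of 0.064 to 0.175). It was kept without the first or the third IL-4 library (adjusted p = 0.039 and 0.00096). Dnmt3a has 16642 exon bases, so the value with the set as a term takes in the long-gene depletion of the third IL-4 library.

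With IL-4, Dnmt3a stood at 29.6 ± 8.96 FPKM against 19.9 ± 2.80 in control, and the log2 fold change of 0.53 (95% interval −0.002 to 1.06, adjusted p = 0.136) did not pass. Without the third IL-4 library it was 0.81 (adjusted p = 0.0016), and with the length and GC trend removed, all 9 libraries kept, it was 0.97 (adjusted p = 0.0017) with every IL-4 library above every control. The IL-6 difference with the trend removed was −1.16 against control (adjusted p = 0.0017) and −2.13 against IL-4 (adjusted p = 1.8e-05). Within the set that holds the controls, the single IL-4 library was at 1.81 times the control mean, and within the other set the IL-6 mean was 0.393 times that of the 2 IL-4 libraries.

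The gene model that overlaps Dnmt3a on the other strand, Dnmt3aos, moved the same way by more. It was examined because of that overlap and outside the rule for named genes. Dnmt3aos lay at 4.65, 4.29 and 5.17 FPKM in control, 19.0, 17.7 and 8.16 after IL-4, and 0.724, 0.774 and 0.940 after IL-6. Its log2 fold change was 1.56 for IL-4 (adjusted p = 0.0073) and −2.40 for IL-6 (adjusted p = 0.0028) against control, and it was −3.96 between the 2 cytokines (adjusted p = 4.2e-05), with no overlap between any 2 groups. The exons share 133 bases, 0.799% of the Dnmt3a exons, and the fragments of Dnmt3aos come to 0.597% to 4.43% of those of Dnmt3a. Whether counting used the strand is not given in the sources used here, so reads in the shared bases cannot be assigned to 1 strand.

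Dnmt1 (ENSMUSG00000004099.16, chr9:20907209-20959888, minus strand), the maintenance enzyme, did not pass in any comparison. It measured 18.6, 14.1 and 16.9 FPKM in control, 17.1, 13.4 and 4.47 after IL-4, and 17.2, 16.5 and 16.6 after IL-6. The third IL-4 library, the lowest, pulled its IL-4 mean down, and without that library and with the trend removed the log2 fold change was −0.003 for either cytokine against control (adjusted p of 0.985 and 0.983). Dnmt3b (ENSMUSG00000027478.15, chr2:153649450-153687730, plus strand), the second de novo enzyme, was scarce. Its values were 0.662, 0.568 and 0.670 FPKM in control, 0.464, 0.459 and 0.260 after IL-4, and 0.517, 0.444 and 0.453 after IL-6, from 53 to 120 fragments a library. Every cytokine-treated library lay below every control, but the log2 fold changes of −0.60 with IL-4 and −0.36 with IL-6 did not pass (adjusted p = 0.184 and 0.609).

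**Figure D3:**
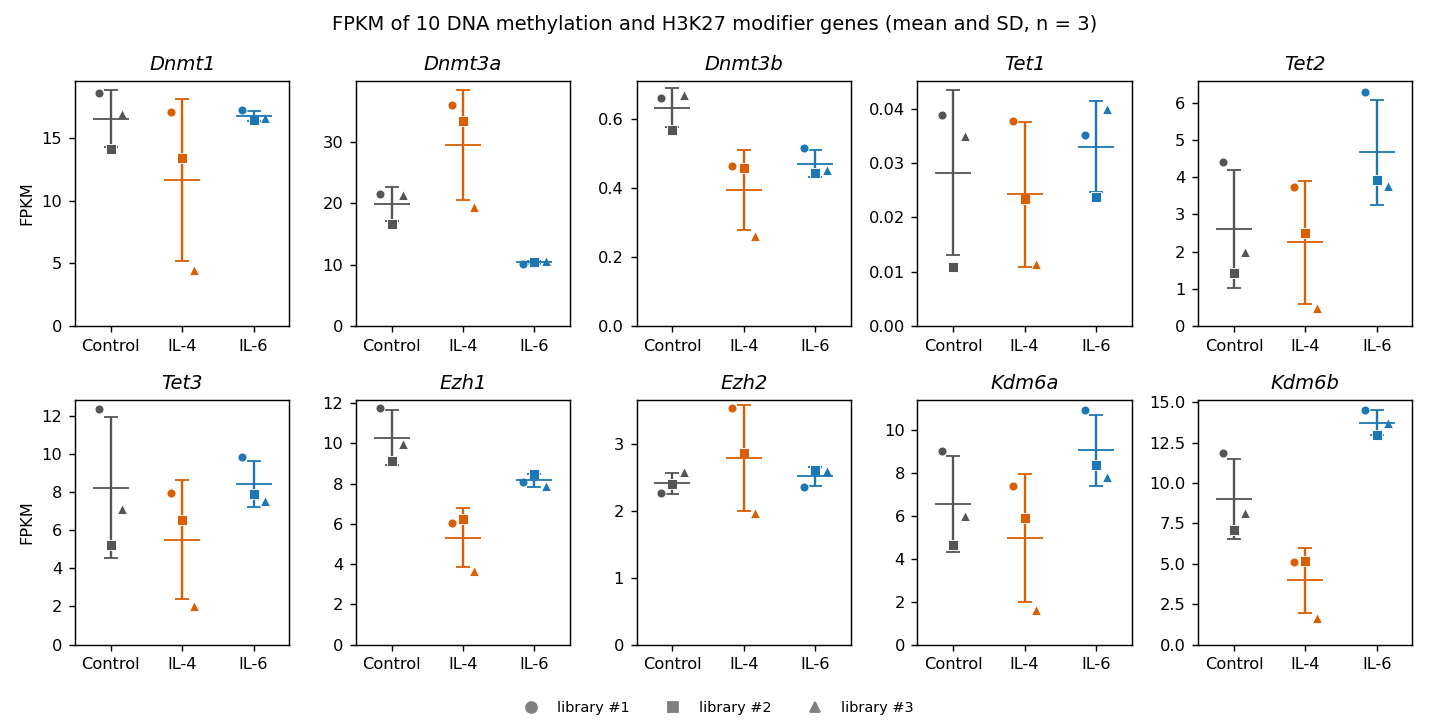
FPKM (y axis, each gene on its own scale from 0) in the 9 libraries by group, with the symbol shape for the replicate number and bars for mean ± SD of 3 libraries. Dnmt3a was highest with IL-4 and lowest with IL-6, Kdm6b was lowest with IL-4 and highest with IL-6, and the third IL-4 library is the lowest of its group for each gene.

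A ratio of 2 genes in 1 library does not depend on the scaling between libraries, and the 3 DNMT genes were also compared as ratios within a library. Dnmt1 stood at 0.865, 0.848 and 0.789 of the Dnmt3a FPKM in control, at 0.474, 0.402 and 0.231 with IL-4, and at 1.71, 1.58 and 1.57 with IL-6. Dnmt3a thus exceeded Dnmt1 in each control and IL-4 library, and Dnmt1 exceeded Dnmt3a in each IL-6 library. The Dnmt3b to Dnmt3a ratio was 0.0321 ± 0.00184 in control, 0.0134 ± 0.000441 after IL-4 and 0.0455 ± 0.00487 after IL-6 (SD, n = 3). For both ratios the 3 groups were fully separated, and the exact permutation test over 280 partitions gave its smallest p, 0.0036 (adjusted over 5 ratios, 0.0060).

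The promoter of Dnmt3a is printed because it is among the most CG-rich in the genome. Promoters, from 250 bases before to 50 after a start site in RefSeq on GRCm38.p6, were found for 9 of the 10 genes, all but Kdm6b (13 windows). In the window chr12:3806730-3807029 (plus strand), CG dinucleotides, the sites that DNMT enzymes methylate, are in capitals:
Dnmt3a: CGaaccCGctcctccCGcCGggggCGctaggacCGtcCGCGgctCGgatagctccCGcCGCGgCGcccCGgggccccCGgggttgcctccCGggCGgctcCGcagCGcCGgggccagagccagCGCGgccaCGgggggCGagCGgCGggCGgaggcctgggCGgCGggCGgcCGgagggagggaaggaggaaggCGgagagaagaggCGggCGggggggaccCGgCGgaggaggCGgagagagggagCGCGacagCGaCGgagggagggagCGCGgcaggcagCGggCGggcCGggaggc
It holds 46 CG dinucleotides, above 98.4% of 32851 promoters, whose median is 7. The second Dnmt3a start nearby had 47 and the internal start 18, while Tet2 had 57, Ezh2 31, Dnmt3b 30 and Ezh1 23. None of the 13 windows held TTCNNNGAA, a spacing bound by several STAT factors, or TTCNNNNGAA, the spacing preferred by STAT6. These letters occur in 8.30% and 6.95% of all promoters, both strands searched.

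The TET genes did not pass in any comparison, and their spread between libraries of 1 group was wide. Tet2 (ENSMUSG00000040943.12, chr3:133463679-133545139, minus strand) measured 4.41, 1.42 and 1.99 FPKM in control, 3.74, 2.51 and 0.489 after IL-4, and 6.29, 3.93 and 3.77 after IL-6. The IL-6 libraries lay above all IL-4 libraries, yet the log2 fold change of 1.36 (95% interval −0.23 to 2.95) did not pass (adjusted p = 0.154). Tet3 (ENSMUSG00000034832.15, chr6:83362373-83459084, minus strand) was the most abundant TET gene, at 12.4, 5.23 and 7.15 FPKM in control, 7.98, 6.53 and 2.00 after IL-4, and 9.84, 7.94 and 7.57 after IL-6. The groups overlapped in each comparison. Tet1 (ENSMUSG00000047146.17, chr10:62804570-62908996, minus strand) was close to absent, with 5 to 21 fragments and 0.0108 to 0.0400 FPKM per library.

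The order of the libraries of 1 group for Tet2 and Tet3 followed that of long genes as a class, the first being highest in each group. Tet2 and Tet3 have 16870 and 16695 exon bases. With the length and GC trend removed, the SE of the Tet2 difference fell to 0.34 from 0.69, and the log2 fold changes were −0.09 for IL-4 and 0.57 for IL-6 against control (adjusted p = 0.867 and 0.336). For Tet3 they were −0.24 and −0.11 (adjusted p = 0.419 and 0.786). The Tet2 to Tet3 ratio, which compares genes of nearly equal length, was 0.302 ± 0.0472 in control, 0.366 ± 0.113 after IL-4 and 0.545 ± 0.0825 after IL-6. Every IL-6 library exceeded every other library, but the exact permutation test missed the threshold (adjusted p = 0.064). It passed with the trend removed (0.029), without the first IL-4 library (0.043) and without the third (0.0089).

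Of the 2 catalytic subunits of PRC2, Ezh1 fell in IL-4-treated Mϕs, and Ezh2 did not pass in any comparison. Ezh1 (ENSMUSG00000006920.14, chr11:101191115-101226463, minus strand) measured 11.8, 9.12 and 9.98 FPKM in control, 6.06, 6.26 and 3.64 after IL-4, and 8.10, 8.50 and 7.87 after IL-6. The IL-4 libraries lay below all others, and the IL-6 libraries lay between IL-4 and control without overlap. Ezh1 fell with IL-4 to 5.32 ± 1.46 from 10.3 ± 1.36 FPKM (SD, n = 3), a log2 fold change of −0.97 (SE 0.21, adjusted p = 0.012). It was higher with IL-6 than with IL-4 by 0.65 (SE 0.21, adjusted p = 0.047), and with IL-6 against control it stood at −0.32 (adjusted p = 0.457).

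The IL-4 difference of Ezh1 was −0.67 with the trend removed (adjusted p = 0.00052) and −0.72 without the third IL-4 library (adjusted p = 0.0021). It missed the threshold without the first control library (−0.87, adjusted p = 0.051), with only the 2 groups fitted (adjusted p = 0.055) and once the set was a term (−0.75, adjusted p = 0.175). The IL-6 against IL-4 difference was lost without any single control or IL-6 library (adjusted p of 0.059 to 0.126). With the trend removed, Ezh1 was also lower with IL-6 than in control (log2 fold change −0.39, adjusted p = 0.017). Within the first set the IL-4 library was at 0.589 of the control mean, and within the second the IL-6 mean was 1.65 times that of IL-4.

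Ezh2 (ENSMUSG00000029687.16, chr6:47530139-47595341, minus strand) measured 2.27, 2.40 and 2.59 FPKM in control, 3.55, 2.87 and 1.97 after IL-4, and 2.36, 2.61 and 2.60 after IL-6. The first and second IL-4 libraries lay above all others and the third below all others. The log2 fold change with IL-4 was 0.16 (95% interval −0.32 to 0.64, adjusted p = 0.599), and with IL-6 it was 0.06 (95% interval −0.42 to 0.54, adjusted p = 0.899). With the trend removed, the 3 IL-4 libraries all exceeded the 3 controls (0.37, adjusted p = 0.087), and Ezh2 was lower with IL-6 than with IL-4 (−0.49, adjusted p = 0.027).

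Ezh1 transcript outnumbered Ezh2 in each of the 9 libraries, per kilobase, but by less with IL-4. The Ezh2 to Ezh1 ratio was 0.193, 0.263 and 0.259 in control, 0.586, 0.459 and 0.541 after IL-4, and 0.291, 0.307 and 0.331 after IL-6. The 3 groups did not overlap (exact permutation test over 280 partitions, p = 0.0036, adjusted 0.0060). In log2, the ratio was 1.15 higher with IL-4 and 0.39 higher with IL-6 than in control, each with p = 0.1, the smallest that an exact test of 3 against 3 libraries allows. The 3 groups also differed with the trend removed (adjusted p = 0.0095), with 1.04 for IL-4, while IL-6 exceeded control by 0.28 and overlapped with it (exact p = 0.2).

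The promoters of both genes are printed, and of the Dnmt1 windows the one with matches. Ezh2 and Dnmt1 are known as genes of proliferating cells, and E2F factors, which drive the genes of DNA replication, bind TTTGGCGC or TTTCGCGC. Matches on either strand are in capitals, in chr11:101226414-101226713 (Ezh1), chr6:47594981-47595280 (Ezh2) and chr9:20952574-20952873 (Dnmt1), all minus strand:
Ezh1: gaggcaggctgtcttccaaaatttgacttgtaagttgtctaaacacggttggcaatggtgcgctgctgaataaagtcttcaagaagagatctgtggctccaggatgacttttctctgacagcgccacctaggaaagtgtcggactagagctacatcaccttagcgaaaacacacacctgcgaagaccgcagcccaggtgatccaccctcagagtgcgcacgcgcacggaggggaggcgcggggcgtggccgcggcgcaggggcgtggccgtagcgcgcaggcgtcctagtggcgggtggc
Ezh2: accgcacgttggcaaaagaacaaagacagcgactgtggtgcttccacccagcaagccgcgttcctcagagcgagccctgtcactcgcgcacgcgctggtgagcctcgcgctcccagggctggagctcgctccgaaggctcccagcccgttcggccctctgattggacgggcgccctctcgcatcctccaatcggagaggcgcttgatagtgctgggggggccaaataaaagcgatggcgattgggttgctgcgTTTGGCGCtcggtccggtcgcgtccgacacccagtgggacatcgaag
Dnmt1: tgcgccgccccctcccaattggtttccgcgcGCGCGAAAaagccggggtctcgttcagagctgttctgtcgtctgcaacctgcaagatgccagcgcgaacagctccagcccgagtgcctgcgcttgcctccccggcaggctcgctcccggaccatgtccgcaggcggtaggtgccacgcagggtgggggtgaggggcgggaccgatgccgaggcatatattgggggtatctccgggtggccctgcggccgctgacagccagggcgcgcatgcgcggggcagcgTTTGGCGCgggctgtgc
The 2 motifs occur in 0.813% of all promoters. Ezh2 had TTTGGCGC from position 4 after the start. The printed Dnmt1 window, at start site 20952623, had 2 matches, at −219 (the reverse strand of TTTCGCGC) and 34. The Dnmt1 windows at the start sites upstream of it, 20959888 and 20952979, had none. Which start site these Mϕs used was not tested. The other windows, those of Ezh1 included, held none of these letters. The list of 30 replication and mitosis genes had 5 higher (Birc5, Cdc20, Ccnb2, Gins1 and Pcna) and 0 lower members with IL-4, and 0 and 1 (Pcna) with IL-6. In IL-6 against IL-4 it had 0 higher and 5 lower (Pcna, Gins2, Tyms, Gins1 and Cdk1), where Pcna, the sliding clamp of DNA replication, stood at −1.59 in log2 (adjusted p = 0.00017). Of all tested genes, 8.55% were higher and 16.3% lower with IL-4, 4.58% and 3.82% with IL-6, and 20.8% and 13.3% in IL-6 against IL-4. With the trend removed, 10 of 28 were higher with IL-4, beside 1670 of all 11356 genes. In IL-6 against IL-4, 10 of 28 were then lower and 1 was higher, beside 2574 and 2365 of all 11356 genes. The median log2 fold change of the 30 was 0.55, 0.30 and −0.32 in the 3 comparisons, and that of the 28 with the trend removed was 0.68, 0.17 and −0.47.

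**Figure D4:**
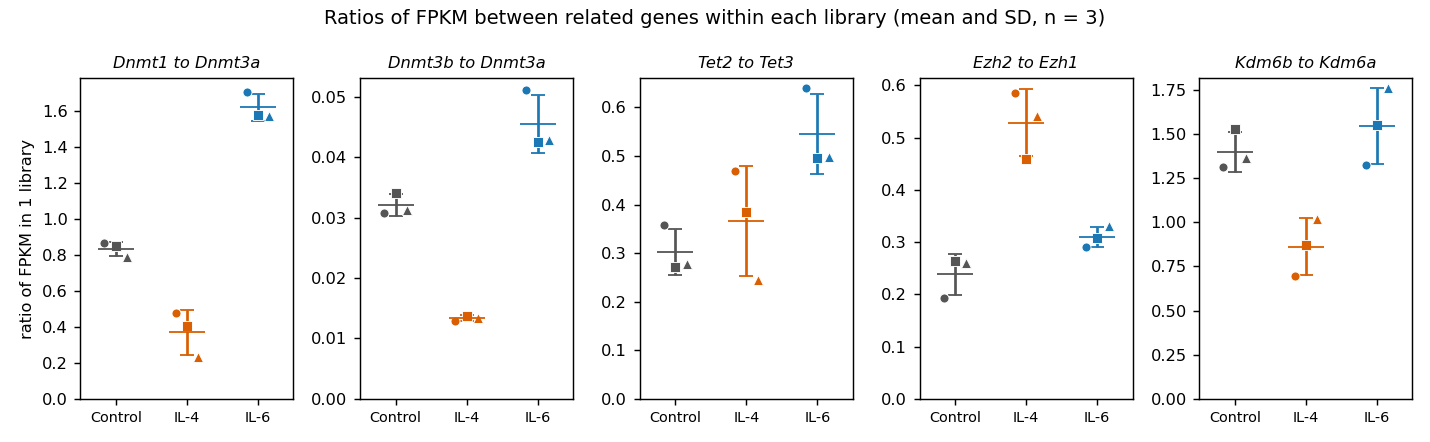
Ratio of FPKM of 2 related genes in the same library (y axis, from 0) by group, with 1 point per library and bars for mean ± SD of 3. Ezh2 to Ezh1 was 0.459 to 0.586 with IL-4 and at most 0.331 elsewhere, and Dnmt1 to Dnmt3a was above 1 in the IL-6 libraries alone.

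Kdm6b, the inducible H3K27 demethylase, had the largest log2 fold change of the 10 genes between the 2 cytokines in FPKM as deposited, in the direction opposite to Dnmt3a, whose change was the larger one with the trend removed (−2.13 against 1.60). Kdm6b (ENSMUSG00000018476.7, chr11:69398508-69413675, minus strand) measured 11.8, 7.11 and 8.14 FPKM in control, 5.13, 5.14 and 1.65 after IL-4, and 14.5, 13.0 and 13.8 after IL-6. Each IL-6 library lay above each control, and each control above each IL-4 library. With IL-6 it stood at 13.8 ± 0.781 against 3.97 ± 2.01 FPKM with IL-4, a ratio of 3.46 and a log2 fold change of 1.93 (SE 0.41, adjusted p = 0.0084). That difference passed under each alternative run, with values from 1.23 to 2.19 and adjusted p of 0.033 or less.

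Against control, Kdm6b with IL-4 just missed the threshold, at −1.30 (SE 0.41, adjusted p = 0.053). It passed with the trend removed (−0.96, adjusted p = 0.041) and without any 1 IL-4 library (−0.77 to −1.56, adjusted p of 0.016 to 0.047). It did not with the set as a term (−0.77, adjusted p = 0.49) or without a control or an IL-6 library (adjusted p of 0.081 to 0.168). With IL-6 against control it was 0.63 (95% interval −0.31 to 1.58, adjusted p = 0.453), and 0.64 with the trend removed (adjusted p = 0.212). Without the third IL-4 library, which enters that comparison through the shared estimate of the spread, the adjusted p was 0.033. Within the first set the IL-4 library was at 0.568 of the control mean, and within the second the IL-6 mean was 4.05 times that of IL-4. An antisense gene, Kdm6bos, shares 286 bases (4.11%) of the Kdm6b exons and held 8 to 39 fragments per library, at most 1.75% of those of Kdm6b.

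Kdm6a (ENSMUSG00000037369.17, chrX:18162575-18279936, plus strand), the X-linked and constitutive H3K27 demethylase, did not pass in any comparison. It measured 9.03, 4.65 and 5.97 FPKM in control, 7.40, 5.88 and 1.62 after IL-4, and 10.9, 8.36 and 7.82 after IL-6. The IL-6 libraries lay above the IL-4 libraries (1.09, 95% interval −0.11 to 2.29, adjusted p = 0.134) and overlapped with control. Its Y-linked counterpart Uty reached at most 0.00768 FPKM. The Kdm6b to Kdm6a ratio was 1.31, 1.53 and 1.36 in control, 0.694, 0.874 and 1.02 after IL-4, and 1.33, 1.55 and 1.76 after IL-6. The IL-4 libraries lay below all others, and the groups differed (exact permutation test over 280 partitions, adjusted p = 0.018). The ratio with IL-6 exceeded that in control by 0.14 in log2 (exact p = 0.4), and with the trend removed by 0.39 without overlap (exact p = 0.1, the smallest possible).

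Irf4, a transcription factor of alternative activation that JMJD3 is known to control, was looked at beside Kdm6b outside the rule for named genes. Irf4 lay at 19.8, 16.2 and 8.15 FPKM with IL-4 and at 1.37 to 2.21 in the other 6 libraries. It was higher with IL-4 than in control by 2.83 in log2 (adjusted p = 0.00043), in the group where Kdm6b was lowest. A link between the 2 genes was not tested.

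The genes that most resembled the members called were listed by Pearson r over the 9 libraries on log2(FPKM + 0.1). These libraries share groups and length trends, so r is a description. Dnmt3a was most like Il7r, the IL-7 receptor (r = 0.992), Socs6 (r = 0.990) and Trerf1 (r = 0.990). Il7r measured 46.8 ± 8.27 FPKM in control, 77.3 ± 25.4 after IL-4 and 20.2 ± 0.944 after IL-6, which is the order of Dnmt3a. Kdm6b was most like Mapk8ip3 (r = 0.998), Grk3 (r = 0.997) and Icmt (r = 0.996), and Ezh1 was most like Vps39, Ago4 and Gramd1b (r = 0.995, 0.995 and 0.994).

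The other components of the same machinery, the replication and mitosis genes above and a set of silenced genes made up 9 lists with 135 genes in the table. The median log2 fold changes of a list stand beside −0.20 with IL-4, 0.00 with IL-6 and 0.22 in IL-6 against IL-4 for all tested genes. With the trend removed, those of all genes were −0.01, −0.07 and −0.04. The counts of a list stand beside 8.55% higher and 16.3% lower with IL-4, 4.58% and 3.82% with IL-6, and 20.8% and 13.3% in IL-6 against IL-4. With the trend removed, the counts over all 11356 genes were 1670 higher and 1941 lower, 818 and 791, and 2365 and 2574 in the same order. Trend removal needs an exon length, so listed genes without one were left out of the counts and medians with the trend removed. Among these were Phf1, Cbx6, Pcgf6, Mbd1, Cxxc5 and Kdm2a, each of which passed in a comparison as deposited. Genes of these lists named with a log2 fold change under 1 in size were named after their values were seen. Of the 11 PRC2 partners tested, 1 was lower with IL-4 and 10 did not pass, among them Eed, the subunit that binds the mark, at 9.54 FPKM in control, 9.44 after IL-4 and 11.3 after IL-6. The gene that fell was Phf1, a Polycomb-like subunit that takes PRC2 to chromatin, which measured 13.4, 15.0 and 13.1 FPKM in control and 5.15, 5.19 and 5.76 with IL-4 (log2 fold change −1.35, SE 0.12, adjusted p = 0.00015). With IL-6, Rbbp7, a histone-binding subunit, was lower (−0.45, adjusted p = 0.041), and 1 gene was higher. This was Jarid2, a PRC2 cofactor, which measured 9.93, 9.22 and 10.1 FPKM against 3.53, 2.58 and 2.85 in control (1.68, SE 0.26, adjusted p = 0.0066). Jarid2 with IL-4 was at 4.39, 4.53 and 2.27 FPKM. In IL-6 against IL-4, 2 were higher and 1 lower. Jarid2 was higher by 1.42 (adjusted p = 0.0042), Phf1 by 1.03 (adjusted p = 0.00040), and Rbbp7 was at −0.46 (adjusted p = 0.013). The list's medians in these 3 comparisons were 0.01, 0.26 and 0.24, and 0.33, 0.05 and −0.16 with the trend removed. Phf1 and Lcor had no exon length and were not in the fit with the trend removed. Of the 9 genes in it, 2 were higher and 0 lower with IL-4. With IL-6 against control 1 was higher and 1 lower, and in IL-6 against IL-4 1 was higher and 2 lower.

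Polycomb repressive complex 1 (PRC1), which binds the H3K27 mark through CBX proteins, fell in part with IL-4. Of 19 genes tested 7 were lower and 0 higher, beside 16.3% and 8.55% of all genes, and the list's median log2 fold change was −0.60 beside −0.20. With the trend removed 5 of 17 were lower and 0 higher. Cbx6 and Pcgf6, both lower as deposited, had no exon length and were not in that fit. Cbx6 measured 2.35, 2.65 and 2.06 FPKM in control, 0.591, 0.514 and 0.363 after IL-4 and 2.18, 2.07 and 2.21 after IL-6 (IL-4 against control −2.07, adjusted p = 0.00019). Cbx7 fell by 1.90 and Pcgf2, a subunit of the canonical complex, fell by 1.60 on the log2 scale (adjusted p = 0.0027 and 0.0016). With IL-6 against control 0 of 19 passed, and in IL-6 against IL-4, 9 were higher and 0 lower, led by Rybp (2.23), Cbx6 (1.95) and Pcgf2 (1.72). With the trend removed that count was 8 of 17 higher and 2 lower, again without Cbx6 and Pcgf6, both higher as deposited. The list's medians were 0.07 with IL-6 and 0.68 in IL-6 against IL-4. After trend removal the medians were −0.32 with IL-4, 0.03 with IL-6 and 0.36 in IL-6 against IL-4.

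**Figure D5:**
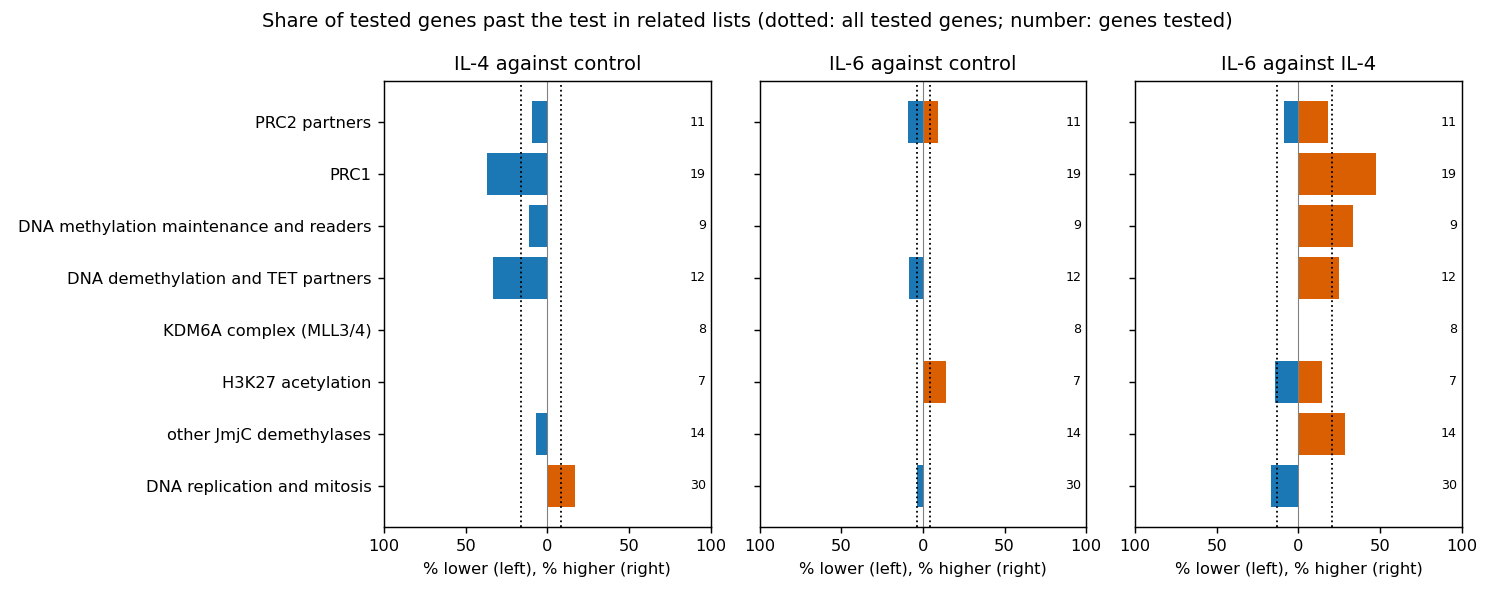
For 8 of the 9 lists, all but that of silenced genes, the percent of tested genes (number at the right) that were lower (left, blue) or higher (right, orange) at an adjusted p under 0.05, with dotted lines at the percent of all tested genes. PRC1 had 7 of 19 genes lower with IL-4 and 9 of 19 higher in IL-6 against IL-4.

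Among 9 genes of methylation maintenance and methyl-CpG reading, 1 was lower with IL-4, 0 passed with IL-6, and 3 were higher in IL-6 against IL-4 (Zbtb4, Zbtb38 and Mbd1). Zbtb4, a zinc finger protein that reads methylated DNA, stood at 2.41 ± 0.831 FPKM with IL-4 against 7.17 ± 1.98 in control (−1.56, adjusted p = 0.0058), and at 6.86 ± 0.229 with IL-6. The list's medians in the 3 comparisons were −0.05, 0.13 and 0.28, and 0.16, −0.10 and −0.08 with the trend removed. After trend removal 2 of 8 were lower with IL-4, 1 was higher and 1 lower with IL-6, and 2 were higher and 2 lower in IL-6 against IL-4. Of 12 genes of DNA demethylation and TET cofactors, 4 were lower with IL-4 (Apobec1, Gadd45b, Cxxc5 and D2hgdh) and 1 with IL-6 (Idh2, −0.66). Apobec1, Gadd45b and Cxxc5 were higher in IL-6 against IL-4. Apobec1, a cytidine deaminase, stood at 95.4 ± 22.0 FPKM with IL-4 against 190 ± 10.8 in control (−1.02, adjusted p = 0.0037). Here the medians were −0.57, −0.31 and 0.18, and −0.44, −0.37 and −0.09 with the trend removed. With the trend removed, 4 of 10 were lower and 0 higher with each cytokine against control, and 2 were higher and 2 lower in IL-6 against IL-4.

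The 8 tested genes of the KDM6A-containing MLL3/4 complexes did not pass in any comparison, and their medians were −0.34, 0.17 and 0.53. With the trend removed (6 genes) the medians were −0.10, 0.06 and 0.21. Of 7 genes of H3K27 acetylation and its removal, 0 passed with IL-4. The deacetylase gene Hdac1 was higher with IL-6 by 0.43 against control and by 0.57 against IL-4, and Hdac2 was lower in IL-6 against IL-4 (−0.37). The medians of these 7 were −0.35, 0.35 and 0.57, and −0.05, 0.20 and 0.35 with the trend removed. Then 3 of 6 were higher and 1 lower in IL-6 against IL-4. Of 14 other JmjC demethylases, 1 was lower with IL-4, 0 passed with IL-6, and 4 were higher in IL-6 against IL-4 (Kdm7a, Kdm5b, Kdm2a and Kdm4b). Kdm5b, which demethylates H3K4, fell with IL-4 to 0.997 ± 0.303 from 2.06 ± 0.266 FPKM (−1.01, adjusted p = 0.014) and stood at 3.53 ± 0.150 with IL-6. Kdm7a was at 20.3 ± 4.85 FPKM with IL-6 against 6.09 ± 2.93 with IL-4 (1.84, adjusted p = 0.018). The medians of the 14 were −0.64, 0.36 and 1.00, and −0.27, 0.17 and 0.52 with the trend removed. After trend removal 2 of 13 were lower with IL-4, 2 were higher with IL-6, and 6 were higher in IL-6 against IL-4.

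Of 20 genes known to be silenced by DNA methylation or H3K27 methylation, 6 were expressed above the filter. Of these, Ddx4, Cdkn2a and Cdkn2b reached it through the IL-4 libraries alone, so they had to differ. Neither their p-values nor a count over the list is given. The largest rise was that of Ddx4, a germ cell RNA helicase whose promoter is known to be methylated in somatic cells. Ddx4 (chr13:112598333-112652475, minus strand) measured 0.152, 0.133 and 0.161 FPKM in control (12 to 17 fragments), 17.4, 13.3 and 7.20 with IL-4 (866 to 1788 fragments), and 0.190, 0.376 and 0.216 with IL-6. In log2 the rise with IL-4 was 5.59 (SE 0.34). Genes picked nearby, after this value was seen, were higher with IL-4 too, and the rest of the region was not examined. Il31ra (chr13:112519898-112594360, the same strand) lay at 4.94, 4.93 and 0.358 FPKM with IL-4 and at 1 to 2 fragments per control library. Il6st, further on that side, was higher by 1.63 (adjusted p = 0.029). Plpp1, on the other side, starts at chr13:112800792 and lay at 2.06, 2.38 and 0.945 FPKM with IL-4. It lay at 0.0655, 0.248 and 0.228 FPKM in control and 0.508, 0.437 and 0.279 with IL-6. Il31ra and Plpp1 also reached the filter through the IL-4 libraries alone, so no p-value is given for them.

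The tumour suppressor genes Cdkn2a and Cdkn2b, classical Polycomb targets that lie beside each other, were higher with IL-4. Cdkn2a held 0 to 2 fragments per control library, 44, 47 and 140 with IL-4 (1.10, 1.32 and 2.99 FPKM) and 3 to 9 with IL-6. Cdkn2b measured 0.123, 0.144 and 0.205 FPKM in control, 0.987, 1.56 and 2.48 after IL-4 and 0.268, 0.264 and 0.304 after IL-6 (IL-4 against control 2.71 in log2). Cdkn1c, an imprinted inhibitor of the cell cycle, moved the other way under both cytokines. It measured 3.64, 6.25 and 5.33 FPKM in control, 0.875, 1.04 and 1.52 with IL-4 (−2.05, adjusted p = 0.0015), and 0.225, 0.270 and 0.144 with IL-6 (−4.03, adjusted p = 0.00019). Hoxb4 fell with IL-4 by 1.33 on the log2 scale (adjusted p = 0.0013).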

How the data were processed

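BM-derived Mϕs were sequenced in 9 libraries (3 control, 3 with IL-4, 3 with IL-6). The authors deposited FPKM per gene, and the sources name STAR 2.4.2a, GRCm38, Cufflinks 2.2.1 and GENCODE M5. A filter on genes is not given in the sources used here. Of 53379 identifiers, 94.8% matched GENCODE M21 with version, which gave symbols, coordinates and exon lengths. Deposited FPKM steps were whole fragments over M21 exon lengths (within 0.05), so each library's total and each gene's fragments could be read back, and precision covers counting error only.

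Values were transformed as log2(FPKM + 0.1), so differences of low genes come out too small. The 12824 genes averaging 0.5 FPKM or more were fitted with limma 3.58.1 (R 4.3.3), 3 groups in one model, eBayes with trend and robust, two-sided, with Benjamini-Hochberg adjustment. All adjusted p-values of genes are from limma. Ratios within a library were tested over all 280 partitions of 9 libraries into groups of 3, adjusted over 5 ratios. The script was tested on simulated data with changes set in the IL-6 group. In IL-6 against control it recovered 33 of 100 changes of 1 in log2 and 69 of 100 changes of 2, with 9 false calls. Only these genes of 12824 were changed, while 1077 genes were called in that comparison of the data. The simulated rates therefore need not hold for the data, least of all for the comparisons with IL-4. A gene that did not pass can still differ. Errors are SD over 3 libraries unless SE is written. Figures were drawn with matplotlib 3.10.9.

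Alternatives were the stricter call (a log2 fold change of at least 1), pseudocounts of 1 and 0.01, dropping the filter or raising it to 5 FPKM, median-ratio rescaling, quantile normalization, fitting 2 groups, the replicate number as a block, a term for the set of libraries, subtraction of each library's spline trend (5 degrees of freedom) on exon length and GC content (11356 genes), limma voom on fragments, and leaving out each library. Trend removal with the block, or without the third IL-4 library, was chosen after seeing the data.

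The members, gene lists and tests were chosen with earlier results of these data known. All 10 members are named. From each list genes past the test and changed by 1 or more in log2 are named, up to 3 in each direction, with the 3 genes most correlated with each member called, and Socs3 and Arg1. 1 gene of the list of methylation maintenance and readers is not reported here, and the list's counts and medians are without it. Promoter sequences are from RefSeq on GRCm38.p6.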

Additional observations from a re-analysis of the deposited data

How the results depend on the processing

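The third IL-4 library and the division of the libraries by intestinal transcripts limit these results most. With 3 libraries per group, an exact test of 2 groups cannot go below p = 0.1. Reads in bases shared with antisense genes cannot be assigned, and Tet1 (5 to 21 fragments) and Dnmt3b (53 to 120) are limited by depth.

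The number of members called was 1 in IL-4 against control. It was 0 with the stricter call, with only the 2 groups fitted and with the set as a term, 2 with a pseudocount of 1, the 5 FPKM filter, quantile normalization or the replicate number as a block, and 3 with median-ratio rescaling or the trend removed (also with the block, and without the third IL-4 library). Leaving out 1 library gave 0 to 4, with 0 without the first control library and 4 without the third IL-4 library (Dnmt3a, Kdm6b, Ezh1 and Ezh2). In IL-6 against control it was 1, and 0 with the stricter call, no filter, the replicate block, the set as a term or voom, 2 with the trend removed (also with the block) and 3 with the trend removed without the third IL-4 library. Leaving out 1 library gave 0 to 2, with 2 without the third IL-4 library, 1 without the first and 0 without any other. In IL-6 against IL-4 it was 3, with 2 to 4 over all alternatives. Of the 5 ratios 4 passed, 5 with 0.1 added to each FPKM, 4 of the 4 that could be tested with the trend removed, and 4 or 5 without 1 library. The other alternatives were not run on ratios.

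The column names number the libraries of each group from 1 to 3, but it is not stated that 1 number is 1 mouse, and the deviations do not settle it. Same-number deviations correlated at 0.521, −0.415 and 0.0777 between control and IL-4, at 0.408, 0.201 and 0.166 between control and IL-6, and at 0.281, −0.0612 and 0.153 between the 2 cytokines. Of 18 matches of a library with another group, each a choice among 3 libraries, 11 were best with its own number. With the number as a replicate block 2, 0 and 3 members were called in the 3 comparisons. Kdm6b with IL-4 passed (adjusted p = 0.048), Dnmt3a with IL-6 did not (adjusted p = 0.077), and no other call of a member changed.

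Signs turned 27 times, for 12 of the members' fold changes, and none of these passed in either fit. With the set as a term, which takes in the depletion of the third IL-4 library, these were Dnmt1 (0.0552), Tet2 (0.6596), Tet3 (0.0443) and Kdm6a (0.2254) with IL-4, Ezh1 with IL-6 (0.0127) and Ezh2 in IL-6 against IL-4 (0.0805). With the trend removed they were Dnmt1 (−0.0032), Tet3 (−0.1068) and Ezh2 (−0.1155) with IL-6, also with the block or without the third IL-4 library. In the last setting Tet2 with IL-4 (0.2762) and Dnmt1 (−0.0005) and Tet3 (−0.0839) in IL-6 against IL-4 turned too. Quantile normalization turned Dnmt1 (−0.0120) and Ezh2 (−0.0332) with IL-6. Over single libraries left out, the values crossed 0 for Tet2 (−0.9715 to 0.3811), Kdm6a (−1.0 to 0.063) and Ezh2 (−0.0217 to 0.388) with IL-4, for Dnmt1 (−0.0819 to 0.1175) and Tet3 (−0.1622 to 0.4508) with IL-6, and for Ezh2 in IL-6 against IL-4 (−0.3293 to 0.0805).

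Of all genes 3186 were called in IL-4 against control, and 1839 with the 5 FPKM filter, 1796 with 2 groups, 1367 with the set as a term, 2026 without the third control library and 4848 without the third IL-4 library. In IL-6 against control 1077 were called, and 628, 2822 and 187 in the same first 3 settings, 462 to 686 without a control or IL-6 library, and 3168 without the third IL-4 library (3544 with the trend removed). In IL-6 against IL-4 4375 were called, 2479 with the 5 FPKM filter, and 2915 and 2911 without the second or the third IL-6 library. Trend removal without the third IL-4 library gave 4764 and 5612 in the comparisons with IL-4. Median-ratio rescaling moved the IL-4 split from 1096 higher and 2090 lower to 1574 and 1618, and that of IL-6 against IL-4 from 2671 and 1704 to 2280 and 2205. Quantile normalization gave 1553 and 1848, and 2323 and 2619. The median of all genes with IL-4 moved from −0.20 to −0.01 and −0.03.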
